A study of Homo sapiens with 12 samples.

Results

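The genes described here are 8 members of the interleukin-6 cytokine system: the ligands LIF, IL6 and IL11, the receptor chains LIFR and OSMR, the shared receptor chain IL6ST, the transcription factor STAT3 and the inhibitor SOCS3. They were taken by symbol, each from the probe set that maps to that symbol alone and has the highest mean signal over 12 Affymetrix arrays. All 8 passed the filter on low signal, among 16110 genes tested of 19775 with such a probe set. The series asked how the phorbol ester PMA, an activator of protein kinase C, changes gene expression in pancreatic cancer cells of a primary and of a metastatic line. BxPC-3 PMA and BxPC-3 untreated are cells of the line that the series calls primary, and AsPC-1 PMA and AsPC-1 untreated are cells of a line from ascites that it calls metastatic. PMA was given at 1 µM for 4 h, and all cells, untreated ones included, had been kept overnight in 2.5% foetal calf serum. Each group holds 3 arrays, made from passages 7, 9 and 11 of BxPC-3 and passages 8, 10 and 12 of AsPC-1. Each line stands for itself only. Per the labels PMA was dissolved in DMSO, and the sources used here do not state which vehicle, if any, the untreated cells received. If they received none, effects of PMA and of DMSO cannot be told apart.

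Most cytokines of the interleukin-6 family signal through the shared chain IL6ST, also called gp130, together with other receptor chains. The signal passes to Janus kinases and STAT3. LIF uses LIFR together with IL6ST, while oncostatin M can use OSMR or LIFR with IL6ST, and IL6 and IL11 use IL6R and IL11RA. STAT3 activates SOCS3, whose protein binds IL6ST and the kinases and limits the signal. LIF and IL6 are known in pancreatic tumours as signals that pass between cancer cells and stroma.

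AsPC-1 PMA replicate 1 (passage 8) stood apart from its group. Its correlation across genes with the other AsPC-1 PMA arrays was 0.921, and with the untreated array from passage 8 it was 0.964, and the other 11 arrays lay between 0.945 and 0.978 with their own groups. Values without it are given for the results that it changed most. The 3' to 5' signal ratio of the ACTB control probe sets was 1.84, 1.99 and 2.02 in BxPC-3 PMA against 2.56, 2.95 and 4.14 in BxPC-3 untreated arrays. That ratio moved with treatment in this line, and its part in the results below was not tested, while the GAPDH ratio lay between 0.987 and 1.12 on all arrays. All 6 epithelial markers were above the 60th percentile of signal on all 12 arrays, and 0 of 4 leukocyte, 0 of 6 fibroblast and stellate, 0 of 3 endothelial, 0 of 1 acinar and 0 of 2 islet markers were. The fibroblast and stellate list summed to 1319 to 3424 in AsPC-1 PMA and 1509 to 3211 in AsPC-1 untreated arrays, nearly all of it the proteoglycan lumican (LUM, 1261 to 3396 and 1484 to 3163), against 204 to 290 in BxPC-3 PMA and 203 to 270 in BxPC-3 untreated arrays. This sum moved with the line and overlapped between PMA and untreated arrays. COL1A1 and COL3A1 of the same list were instead brighter in BxPC-3. COL1A1 gave 77.4 to 109 in BxPC-3 untreated against 0.235 to 2.40 in AsPC-1 untreated arrays. COL3A1 gave 50.2 to 53.6 against 1.28 to 11.2. Within BxPC-3 untreated, 3 of 6 fibroblast and stellate markers exceeded the 60th percentile on all arrays. Within AsPC-1 PMA, 2 of 4 leukocyte markers did. The part of these markers in the differences between lines was not tested.

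Promoters are shown for SOCS3, IL6ST and OSMR, which had higher means after PMA in both lines and passed the test in at least 1. The sequences are the 250 bases before the gene start from RefSeq (GRCh38.p14), printed 5′ to 3′ on the strand of the gene, and 6 of the 8 members, all but LIF and LIFR, had a window there. Capitals mark matches to TTNCNNNAA, a STAT-type motif, searched on both strands.
SOCS3, chr17:78360926-78361175, minus strand: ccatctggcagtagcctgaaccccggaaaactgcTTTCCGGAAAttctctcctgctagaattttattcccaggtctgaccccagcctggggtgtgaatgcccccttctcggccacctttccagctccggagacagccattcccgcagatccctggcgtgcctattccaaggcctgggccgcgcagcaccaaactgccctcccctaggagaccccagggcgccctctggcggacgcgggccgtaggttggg
IL6ST, chr5:55994964-55995213, minus strand: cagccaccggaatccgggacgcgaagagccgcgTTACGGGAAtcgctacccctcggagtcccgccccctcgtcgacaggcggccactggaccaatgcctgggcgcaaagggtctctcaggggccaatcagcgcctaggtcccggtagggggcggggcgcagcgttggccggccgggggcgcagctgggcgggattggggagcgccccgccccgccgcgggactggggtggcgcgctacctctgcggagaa
OSMR, chr5:38845762-38846011, plus strand: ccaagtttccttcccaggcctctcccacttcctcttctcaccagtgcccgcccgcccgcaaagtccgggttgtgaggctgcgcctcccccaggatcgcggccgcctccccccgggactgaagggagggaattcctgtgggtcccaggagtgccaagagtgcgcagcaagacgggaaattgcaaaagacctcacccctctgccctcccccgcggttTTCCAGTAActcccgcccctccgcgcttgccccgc
The SOCS3 window holds 2 overlapping matches that begin 216 and 215 bases before the start. The IL6ST match begins 217 bases and the OSMR match 35 bases before it. The window of STAT3 also holds 1 match, 132 bases before the start, and those of IL6 and IL11 hold 0. TTNCNNNAA occurs in 30.5% of 34943 promoter windows of the same length, so a match is a description only. Another STAT-type motif, TTCNNNGAA (6.56% of windows), the cyclic AMP motif TGACGTCA (1.63%) and the AP-1 motif TGANTCA (6.59%) had no match in the 3 windows printed here, the AP-1 motif being found 96 bases before the start of IL11. The kappaB consensus (6.87%) was found 73 bases before the start of IL6 and not in the 3 windows. A further SOCS3 window, before another start inside that gene, holds 0 matches to any of these motifs. The 3 LIFR windows in RefSeq lie before other starts inside the gene. One of them holds a TTNCNNNAA and a TTCNNNGAA match 165 bases before its start, and another a TTCNNNGAA match 182 bases before its start.

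In BxPC-3, PMA raised LIF, SOCS3 and IL6ST and lowered LIFR. LIF, the ligand, rose most. These 4 of 8 members passed the test (limma, Benjamini-Hochberg adjusted p below 0.05), against 6.01% of all genes tested, with 3 of 8 higher (2.61% of genes) and 1 of 8 lower (3.4%). The median log2 change of the 8 was 0.79, against -0.0009 over all genes. PMA and untreated arrays did not overlap for 7 of the 8, a separation that 39% of genes showed. Each array measured RNA of a whole culture, so a larger share of expressing cells and more RNA per cell cannot be told apart.

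In AsPC-1, PMA raised OSMR and SOCS3. These 2 of 8 members passed the test, against 1.94% of all genes, both higher (1.21% of genes, with 0.732% lower) and both without overlap between groups (14.5% of genes). The median log2 change was 0.84, against -0.10 over all genes. Without AsPC-1 PMA replicate 1, LIF, IL6ST and STAT3 passed too, which made 5 of 8, and the genes called numbered 3167 in place of 313. Centring each array on its median shifted every log2 change by 0.14 in BxPC-3 and 0.22 in AsPC-1. Over all genes it turned the calls from 421 higher and 547 lower into 523 and 442 in BxPC-3, and from 195 and 118 into 220 and 71 in AsPC-1. The direction of no member's PMA change reversed with it, and the LIFR and IL6ST calls in BxPC-3 were lost (limma adjusted p = 0.0986 and 0.0864).

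**Figure D1:**
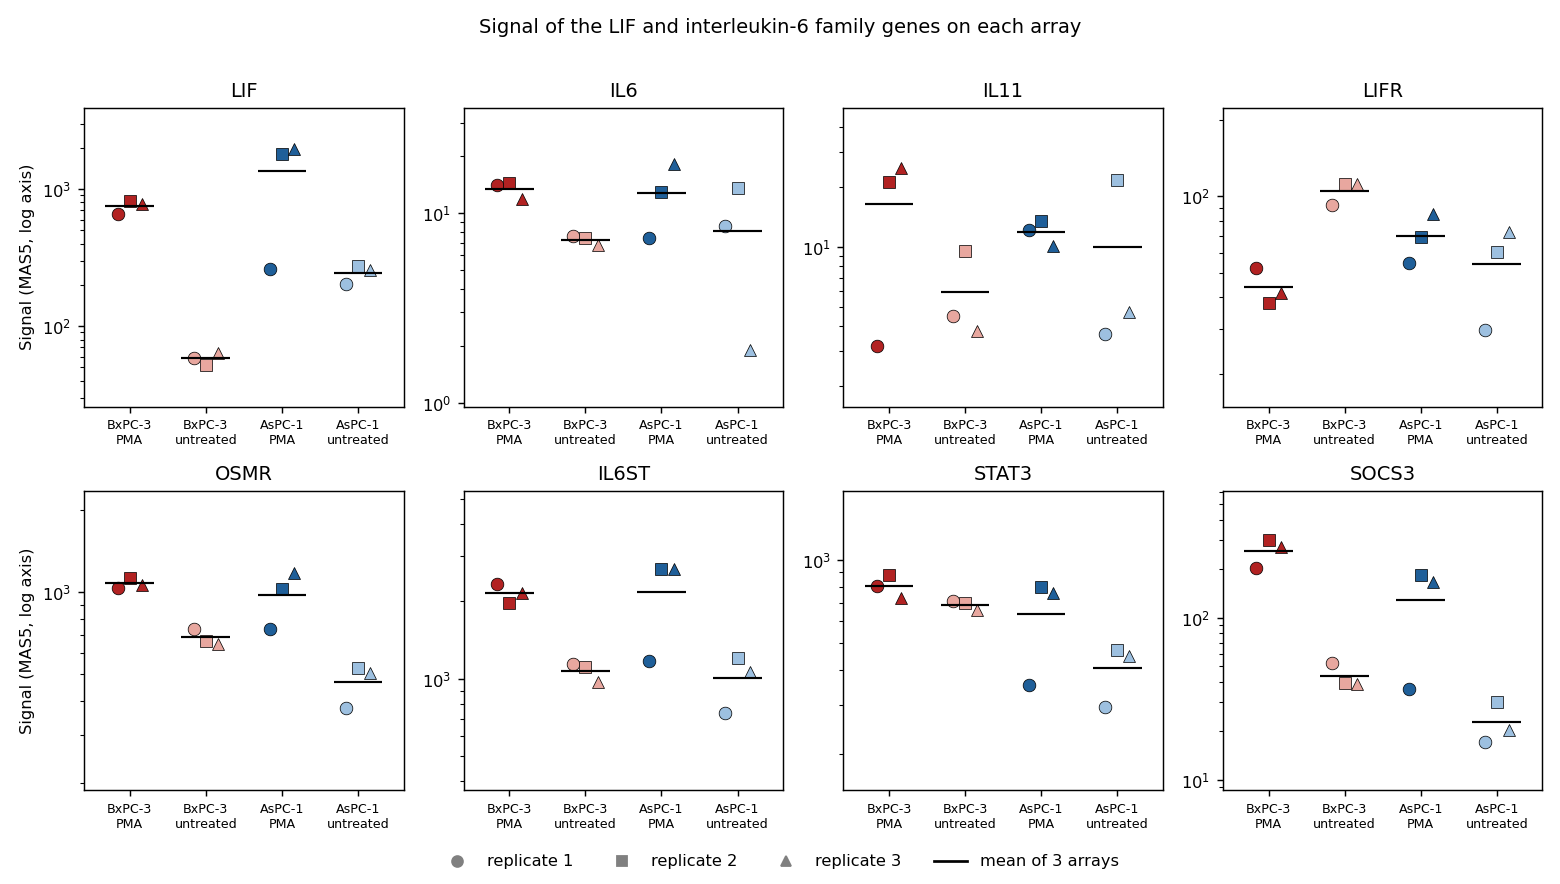
Signal of each gene on every array (MAS5 signal, log axis), by group, with marker shapes for replicates and a bar for the mean of 3 arrays. LIF, SOCS3, OSMR and IL6ST are higher on all BxPC-3 PMA than on all BxPC-3 untreated arrays, and AsPC-1 PMA replicate 1 (dark blue circle) lies far below the other 2 arrays of its group for LIF, SOCS3, IL6ST and STAT3.

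LIF encodes leukaemia inhibitory factor. Its signals were 661, 814 and 776 in BxPC-3 PMA against 59.1, 51.8 and 63.8 in BxPC-3 untreated arrays. All PMA arrays lay above all untreated ones by a wide gap. The mean was 750.2 ± 79.7 after PMA and 58.2 ± 6.01 untreated (SD, n = 3 each), a log2 change of 3.62 ± 0.55 (SE), or 12.3-fold, with limma adjusted p = 0.0021. Within passages the change was 3.42, 3.90 and 3.54, and leaving out any 1 of the 12 arrays kept the call (adjusted p up to 0.0163).

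In AsPC-1, LIF signals were 261, 1807 and 1967 with PMA against 203, 273 and 256 untreated. Replicates 2 and 3 were far above the untreated arrays, and replicate 1 lay within their range. The log2 change of 2.00 ± 0.55 did not pass the test (limma adjusted p = 0.0878). It passed with passage as a block (adjusted p = 0.0174) and, at 2.95 ± 0.17, without AsPC-1 PMA replicate 1 (adjusted p = 1.88e-07). Within passages it was 0.36, 2.71 and 2.93.

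IL6 was dim on every array. The 40th percentile of signal, on which the filter rests, lay between 8.18 and 10.2. IL6 signals were 14.1, 14.5 and 12 in BxPC-3 PMA against 7.56, 7.37 and 6.82 in BxPC-3 untreated arrays. These groups did not overlap, yet the log2 change of 0.68 ± 0.44 did not pass the test (limma adjusted p = 0.414). In AsPC-1 they were 7.41, 13.0 and 18.1 with PMA against 8.55, 13.7 and 1.90 untreated, and the groups overlapped. The log2 change was 0.63 ± 0.44 (limma adjusted p = 0.523).

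IL11 was also dim, with signals of 3.17, 21.1 and 24.9 in BxPC-3 PMA against 4.53, 9.54 and 3.80 in BxPC-3 untreated arrays. BxPC-3 PMA replicate 1 was the lowest of these 6. The log2 change was 0.90 ± 0.60 in BxPC-3 (limma adjusted p = 0.439) and 0.46 ± 0.60 in AsPC-1 (limma adjusted p = 0.767). AsPC-1 signals were 12.2, 13.4 and 10.2 with PMA against 3.65, 21.6 and 4.74 untreated, with overlap. A second IL11 probe set gave 32.3, 20.2 and 34.8 in BxPC-3 PMA against 1.04, 13.0 and 8.55 in BxPC-3 untreated arrays. There the groups did not overlap, and the log2 change of 1.79 ± 0.57 missed the threshold among all probe sets (limma adjusted p = 0.089).

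LIFR, the ligand-binding chain for LIF, went the other way to its ligand in BxPC-3. Its signals were 52.1, 38.1 and 41.5 in BxPC-3 PMA against 92.6, 112 and 112 in BxPC-3 untreated arrays, without overlap. It fell by 1.21 ± 0.30 on the log2 scale (limma adjusted p = 0.033), 2.32-fold lower. The call was lost when any 1 of the 6 BxPC-3 arrays was left out (adjusted p between 0.0672 and 0.130). In AsPC-1 the signals were 54.6, 69.0 and 85.1 with PMA against 29.6, 60.2 and 72.4 untreated. These overlapped, with a log2 change of 0.41 ± 0.30 (limma adjusted p = 0.55).

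The difference between the lines in the LIFR response was -1.62 ± 0.43 (log2, BxPC-3 minus AsPC-1, 95% interval -2.55 to -0.70) and did not pass the test over all genes (limma adjusted p = 0.181). Without AsPC-1 PMA replicate 1 it was -1.78 and passed (adjusted p = 0.0313). The other 4 LIFR probe sets did not carry the fall past the threshold. The mean over all 5 gave -0.24 (adjusted p = 0.712). The log2 changes of the other 4 in BxPC-3 lay between -0.46 and 0.58, and 1 of them, at -0.46, had groups that did not overlap.

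OSMR, the oncostatin M receptor chain, was higher with PMA on every array pair of both lines. Its signals were 1039, 1126 and 1068 in BxPC-3 PMA against 735, 666 and 649 in BxPC-3 untreated arrays. The groups did not overlap, and the log2 change of 0.66 ± 0.19 lay just outside the threshold (limma adjusted p = 0.0554). It passed with passage as a block (adjusted p = 0.0139) and without AsPC-1 PMA replicate 1 in the shared spread (adjusted p = 0.00578).

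In AsPC-1, OSMR signals were 736, 1030.0 and 1173 with PMA against 376, 530.3 and 507 untreated. Every PMA array, replicate 1 included, lay above every untreated one. OSMR rose by 1.04 ± 0.19 on the log2 scale, 2.06-fold (limma adjusted p = 0.0143). The call was lost without AsPC-1 PMA replicate 2 (adjusted p = 0.0789) or 3 (adjusted p = 0.0896), without the intensity trend (0.0563) and with the AsPC-1 arrays alone (0.287). A second OSMR probe set passed in both lines, with log2 changes of 1.25 ± 0.21 in BxPC-3 (limma adjusted p = 0.00432) and 1.05 ± 0.21 in AsPC-1 (limma adjusted p = 0.0306). The third gave 0.09 and 0.44 and did not pass.

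IL6ST, the chain that all these receptors share, had signals of 2326, 1976 and 2154 in BxPC-3 PMA against 1144, 1115 and 969.8 in BxPC-3 untreated arrays. The PMA arrays were about 2.00-fold higher and did not overlap with the untreated ones. The log2 change of 1.00 ± 0.27 passed narrowly (limma adjusted p = 0.0484). It no longer passed without any 1 BxPC-3 array (adjusted p between 0.112 and 0.178), or without AsPC-1 untreated replicate 2 (0.0574) or 3 (0.0665). It was also lost with a pseudocount of 1, without the filter on dim genes, with the mean of probe sets and without the intensity trend (adjusted p between 0.0521 and 0.130).

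In AsPC-1, IL6ST signals were 1169, 2665 and 2674 with PMA against 738, 1208 and 1065 untreated. Replicate 1 lay within the untreated range and the other 2 lay far above the untreated arrays' mean of 1004. The log2 change of 1.04 ± 0.27 did not pass (limma adjusted p = 0.0739). It passed with passage as a block (adjusted p = 0.00347) and, at 1.44 ± 0.18, without AsPC-1 PMA replicate 1 (adjusted p = 8.05e-05). All 5 tested IL6ST probe sets were higher with PMA in both lines, by 0.99 to 1.41 in BxPC-3 and 1.04 to 1.43 in AsPC-1 (log2). When all probe sets were tested, 1 of them passed in BxPC-3, at 1.41 ± 0.34 (limma adjusted p = 0.0285). It was not the probe set used for the gene, which missed the threshold there (limma adjusted p = 0.052). The 5 probe sets measure the same arrays and are no further replicates.

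**Figure D2:**
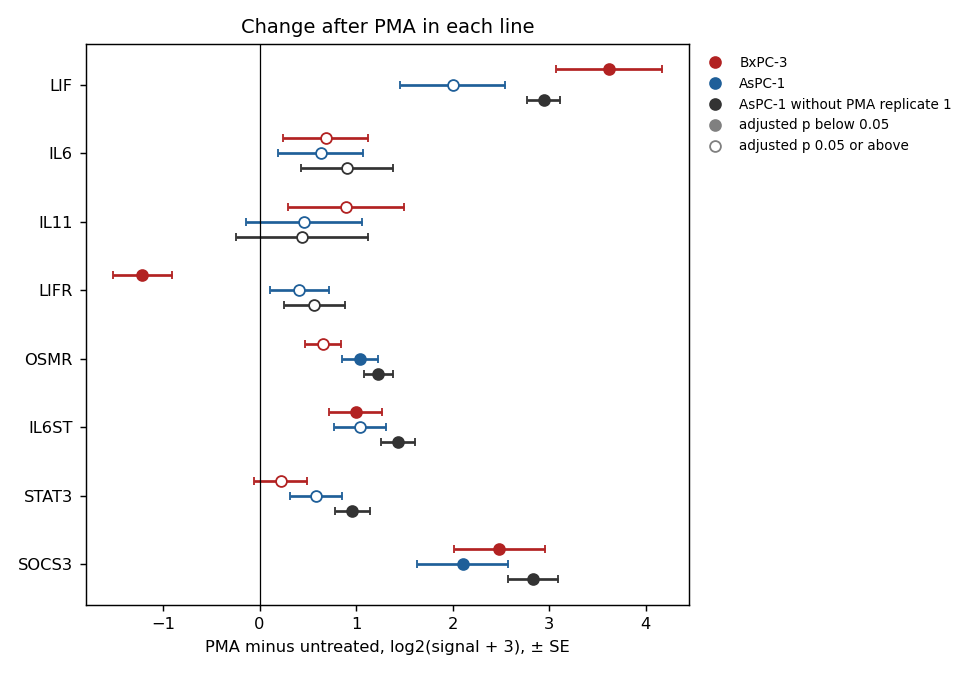
Log2 change of each gene after PMA (PMA minus untreated, log2(signal + 3), bars are SE) in BxPC-3, in AsPC-1 and in AsPC-1 without PMA replicate 1, with filled points for adjusted p below 0.05. LIFR is the gene with the points of the lines on opposite sides of 0 (-1.21 in BxPC-3, 0.41 in AsPC-1), and the SEs of LIF, SOCS3 and IL6ST in AsPC-1 shrink when replicate 1 is left out.

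STAT3, the transcription factor at the end of the pathway, had signals of 804, 881 and 726 in BxPC-3 PMA against 711, 697 and 658 in BxPC-3 untreated arrays. The groups did not overlap but lay close, with a log2 change of 0.22 ± 0.27 (95% interval -0.37 to 0.80) and limma adjusted p = 0.717. In AsPC-1 they were 355, 795 and 761 with PMA against 296, 474 and 449 untreated, with replicate 1 again within the untreated range. The log2 change there was 0.59 ± 0.27 (limma adjusted p = 0.301), and 0.96 ± 0.18 without that array (adjusted p = 0.00206). The other STAT3 probe sets were also higher with PMA in both lines, none past the threshold. From brightest to dimmest they gave 0.19, 0.99 and 0.39 in BxPC-3 and 0.85, 0.30 and 1.30 in AsPC-1. Groups did not overlap for the one at 0.99 ± 0.30 in BxPC-3 (limma adjusted p = 0.0757). Nor did they for the dimmest, at 1.30 ± 0.48 in AsPC-1 (limma adjusted p = 0.215). All of these are transcript levels, and STAT3 acts through phosphorylation, which the arrays do not measure.

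SOCS3, the inhibitor, passed the test in both lines. Its signals were 202, 301 and 274 in BxPC-3 PMA against 52.2, 39.3 and 39.2 in BxPC-3 untreated arrays. It rose by 2.49 ± 0.47 on the log2 scale, 5.60-fold (limma adjusted p = 0.00837), and kept the call without any 1 of the 12 arrays (adjusted p up to 0.0464). In AsPC-1 they were 36.3, 183 and 167 with PMA against 17.2, 30.3 and 20.2 untreated. The groups did not overlap in either line.

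In AsPC-1, SOCS3 rose by 2.11 ± 0.47, or 4.30-fold (limma adjusted p = 0.0404). This call was lost without any 1 of the 11 arrays other than AsPC-1 PMA replicate 1 (adjusted p between 0.0629 and 0.188), without the intensity trend (0.0853) and with the AsPC-1 arrays alone (0.364). Without AsPC-1 PMA replicate 1 the change was 2.83 (adjusted p = 8.91e-06). The other SOCS3 probe sets differed. The dimmest was higher in both lines by 2.05 and 1.2 and did not pass, and the other 2 gave 0.00 and -0.57 in BxPC-3 and 0.07 and -0.14 in AsPC-1. The mean over all SOCS3 probe sets did not pass in either line, at 0.99 in BxPC-3 (adjusted p = 0.0782) and 0.81 in AsPC-1 (adjusted p = 0.21).

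**Figure D3:**
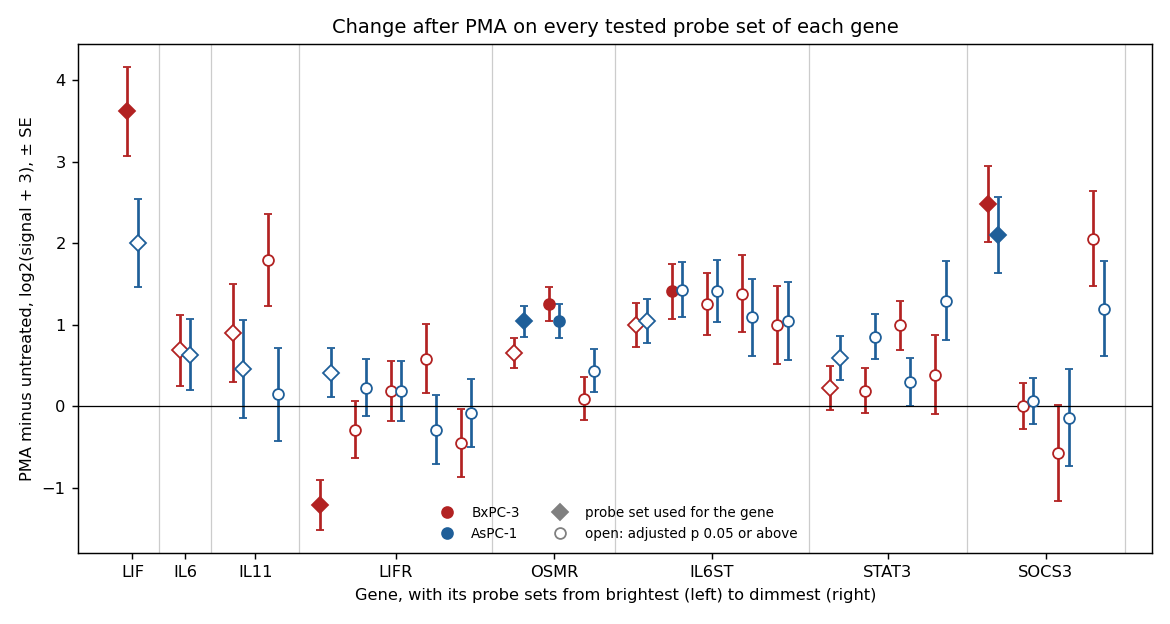
Log2 change after PMA (PMA minus untreated, bars are SE) on each tested probe set of the 8 genes, ordered from brightest to dimmest within a gene, with diamonds for the probe set used and filled symbols for adjusted p below 0.05 over all probe sets. The 5 IL6ST probe sets lie between 0.99 and 1.43 in both lines, while those of SOCS3 and LIFR spread on either side of 0.

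The difference of the PMA responses was not past the threshold for any of the 8 members (0 called, against 0.497% of all genes, 0.31% upward and 0.186% downward, and 1, LIFR, at an unadjusted p below 0.05). For LIF it was 1.62 ± 0.77 (BxPC-3 minus AsPC-1, 95% interval -0.05 to 3.29, limma adjusted p = 0.579). For SOCS3 it was 0.38 ± 0.66 (interval -1.05 to 1.81) and for IL6ST -0.04 ± 0.39 (interval -0.88 to 0.79). OSMR gave -0.38 ± 0.26 (interval -0.95 to 0.18). These differences without AsPC-1 PMA replicate 1 were 0.67 for LIF, -0.35 for SOCS3, -0.44 for IL6ST and -0.58 for OSMR, none past the threshold. The intervals are wide, and a missed threshold does not show that the lines respond alike.

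Between the lines without PMA, LIFR, OSMR and STAT3 were higher in BxPC-3 and LIF was lower. These 4 of 8 passed the test, against 32.7% of all genes, with 3 higher (17%) and 1 lower (15.8%), and 5 of 8 did not overlap (50.9% of genes). LIF, at 59.1, 51.8 and 63.8 in BxPC-3 untreated against 203, 273 and 256 in AsPC-1 untreated arrays, was 4.01-fold lower in BxPC-3, a log2 difference of -2.01 ± 0.55 (limma adjusted p = 0.0121). That call held without any 1 of the 12 arrays (adjusted p up to 0.0417).

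LIFR differed by 1.01 ± 0.30, 2.01-fold higher in BxPC-3 untreated cells (limma adjusted p = 0.021). It lost the call without BxPC-3 untreated replicate 2 (0.069) or 3 (0.0677) or AsPC-1 untreated replicate 1 (0.0726). The mean over all LIFR probe sets gave 0.12 (adjusted p = 0.78), and 1 of the other 4 went the other way without overlap, at -1.04 ± 0.42 (limma adjusted p = 0.0825). OSMR differed by 0.55 ± 0.19 (limma adjusted p = 0.037) and STAT3 by 0.78 ± 0.27 (limma adjusted p = 0.0401). Their other probe sets were also higher in BxPC-3, none past the threshold. They gave 0.27 and 0.40 for OSMR, and 0.50, 0.68 and 0.55 for STAT3. Leaving out single arrays ended the OSMR call in 7 of 12 cases (adjusted p up to 0.124) and the STAT3 call in 8 of 12 (up to 0.145). With arrays centred on their medians the adjusted p was 0.0564 for LIFR, 0.162 for OSMR and 0.129 for STAT3. Without AsPC-1 untreated replicate 1 the log2 differences were 0.39 for OSMR and 0.57 for STAT3. SOCS3 was higher in BxPC-3 without overlap, by 0.88 ± 0.47, and did not pass (limma adjusted p = 0.172). It did without AsPC-1 PMA replicate 1 in the shared spread (adjusted p = 0.00764). The other SOCS3 probe sets were lower in BxPC-3, at -0.25, -0.59 and -0.32, none past the threshold. The dimmest, at -0.32, was lower without overlap. The mean over all SOCS3 probe sets gave -0.07.

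After PMA, 0 of 8 members passed the limma test of a difference between the lines, against 33.7% of all genes (18.4% higher and 15.3% lower in BxPC-3), and 1 had an unadjusted p below 0.05. Median centring turned the calls over all genes from 2967 higher and 2467 lower into 2447 and 2863. The 2 whose groups did not overlap (43.5% of genes) were SOCS3 and LIFR. SOCS3, at 202, 301 and 274 in BxPC-3 PMA against 36.3, 183 and 167 in AsPC-1 PMA arrays, differed by 1.27 ± 0.47 (limma adjusted p = 0.0532). It passed with passage as a block (adjusted p = 0.0488) and without AsPC-1 PMA replicate 2 (0.0207) or 3 (0.0302). The difference was 0.54 without AsPC-1 PMA replicate 1 (adjusted p = 0.120), and the mean over all SOCS3 probe sets gave 0.12 (adjusted p = 0.811).

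LIFR, which was higher in BxPC-3 than in AsPC-1 untreated cells, was lower in BxPC-3 PMA than in AsPC-1 PMA arrays by a log2 difference of -0.62 ± 0.30 (limma adjusted p = 0.141). LIF differed by -0.39 ± 0.55 over all arrays (limma adjusted p = 0.644). Without AsPC-1 PMA replicate 1 the LIF difference was -1.33 ± 0.17 (adjusted p = 2.74e-05), and without replicate 2 or 3 of that group it was 0.06 or 0.12. The sign and the call for LIF after PMA thus changed with the AsPC-1 PMA array left out. Among all probe sets, 2 further ones of the members passed after PMA without overlap, both higher in BxPC-3. They were the second of IL11 at 2.36 ± 0.57 (limma adjusted p = 0.00612) and 1 of STAT3 at 1.38 ± 0.30 (limma adjusted p = 0.00311).

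Other genes of the pathway were read from 5 lists. Of the other ligands, 3 of 8 were tested (OSM, CTF1 and CNTF) and 0 passed the limma test for PMA in either line (0 in BxPC-3 and 1 in AsPC-1 at an unadjusted p below 0.05). Their median log2 change was -0.11 in BxPC-3 and 0.47 in AsPC-1. CTF1, cardiotrophin, was lower in BxPC-3 than in AsPC-1 untreated cells by a log2 difference of -1.15 ± 0.35 (limma adjusted p = 0.0206), and after PMA by -2.14 ± 0.35 (limma adjusted p = 0.000292). OSM passed as lower in BxPC-3 after PMA, by -1.76 (adjusted p = 0.0165), over the 11 arrays other than AsPC-1 PMA replicate 1.

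Of 5 other receptor chains, 0 passed for PMA in either line (limma, 0 also at an unadjusted p below 0.05), with median log2 changes of -0.13 in BxPC-3 and 0.49 in AsPC-1. IL6R, the chain that binds IL6, had signals of 52.2, 665 and 689 in AsPC-1 PMA against 129, 222 and 214 in AsPC-1 untreated arrays. Replicate 1 was the lowest of the 6 and the other 2 PMA arrays the highest. The log2 change was 0.66 over all arrays (limma adjusted p = 0.706) and 1.87 ± 0.28 without replicate 1 (adjusted p = 0.000385). In BxPC-3 it was 0.35 and did not pass. IL11RA gave -0.14 in BxPC-3 and 0.00 in AsPC-1, neither past the threshold.

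After PMA the lines differed in 2 of these chains. CNTFR was lower in BxPC-3 by a log2 difference of -1.64 ± 0.43 (limma adjusted p = 0.00887), and IL31RA was higher by 1.54 ± 0.52 (limma adjusted p = 0.0337). These are 2 of 5, against 33.7% of all genes. Both calls rest on dim signals. CNTFR gave 1.80, 8.30 and 13.1 in BxPC-3 PMA against 25.2, 26.2 and 29.0 in AsPC-1 PMA arrays. IL31RA gave 36.5, 9.01 and 11.7 against 1.26, 4.87 and 5.38. Over the 11 arrays other than AsPC-1 PMA replicate 1 the IL31RA call was lost (1.23, adjusted p = 0.0935) and IL6R passed as lower in BxPC-3 (-2.20, adjusted p = 2.94e-05).

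Of 10 tested kinases and other signal carriers 0 passed for PMA in either line (limma, 1 in each at an unadjusted p below 0.05), with median log2 changes of 0.24 in BxPC-3 and 0.07 in AsPC-1. The log2 change of JAK1 was 0.13 in BxPC-3 and 0.27 in AsPC-1, and that of JAK2 -0.31 and -0.55, none past the threshold. With passage as a block, 1 passed in BxPC-3, the adaptor GAB1 at 0.78 ± 0.22 (adjusted p = 0.0459), a gene chosen after its values were seen. With AsPC-1 PMA replicate 1 left out, GAB1 passed as higher in BxPC-3 too, and in AsPC-1 1 signal carrier was higher, STAT5A (1.26), and 1 lower, GAB1 (-0.74). Leaving that array out raised the PMA calls over all genes from 968 to 2426 in BxPC-3 and from 313 to 3167 in AsPC-1. Between untreated lines 4 of the 10 passed, against 32.7% of all genes. Of these 2 were higher in BxPC-3, JAK2 (0.91) and the adaptor SHC1 (0.63), and 2 lower, the adaptor GAB2 (-2.16) and the phosphatase PTPN11 (-0.52). After PMA 2 were higher and 3 lower in BxPC-3, the same 4 genes with STAT5A (-1.09) added. Leaving AsPC-1 PMA replicate 1 out gave 2 higher and 4 lower between untreated lines, and 3 higher and 3 lower after PMA.

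Of 14 inhibitors other than SOCS3, 0 passed for PMA in either line (limma, 1 in BxPC-3 and 3 in AsPC-1 at an unadjusted p below 0.05), with a median log2 change of 0.02 in BxPC-3 and -0.02 in AsPC-1. SOCS1, which also acts on Janus kinases, had signals of 15, 121 and 131 in AsPC-1 PMA against 8.34, 3.96 and 16.8 in AsPC-1 untreated arrays. Replicate 1 lay within the untreated range and the other 2 well above it. The log2 change of 2.53 ± 0.65 missed the threshold (limma adjusted p = 0.0689), and passed with passage as a block (adjusted p = 0.0245) and, at 3.47 ± 0.44, without replicate 1 (adjusted p = 0.000105). In BxPC-3 it was 0.93 ± 0.65 and did not pass. Without replicate 1 the AsPC-1 count of inhibitors was 2 higher, SOCS1 and PTPN1 (0.57), and 3 lower. The 3 lower were PIAS3 (-1.24), PIAS4 (-0.98) and SOCS6 (-0.75). These genes were named after their values were seen. Over all genes that setting called 983 higher and 2184 lower in AsPC-1, in place of 195 and 118.

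Between untreated lines 5 of the 14 inhibitors were higher in BxPC-3 and 0 lower, against 17% and 15.8% of all genes. They were SOCS2 (1.57), CISH (1.46), PTPN1 (1.16), SOCS4 (0.96) and SOCS7 (0.58). With passage as a block 4 were higher and 0 lower, and without AsPC-1 PMA replicate 1 in the shared spread 6 were higher and 1 lower. SOCS2 signals were 436, 350.1 and 392 in BxPC-3 untreated against 66.0, 160 and 203 in AsPC-1 untreated arrays. After PMA 6 were higher and 0 lower, against 18.4% and 15.3% of all genes, and without AsPC-1 PMA replicate 1 the counts were 7 and 1. The 6 were CISH (1.56), SOCS2 (1.2), PTPN1 (0.89), SOCS6 (0.74), PTPN2 (0.74) and SOCS4 (0.62).

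Of 22 tested genes known to respond to STAT3, 4 rose and 0 fell in each line, against 2.61% of all genes higher and 3.4% lower in BxPC-3 and 1.21% and 0.732% in AsPC-1. The median log2 change was 0.56 in BxPC-3 and 0.20 in AsPC-1. In BxPC-3 the 4 were the kinase PIM1 (2.00), MYC (1.44), the transcription factor CEBPD (1.34) and FOSL2 (0.89). In AsPC-1 they were CEBPB (2.07), the survival gene MCL1 (1.89), FOSL2 (1.06) and MYC (0.99). Many of these genes also respond to other pathways. The list was chosen with earlier results of these data known, and it is a description only.

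PIM1 signals were 247, 364 and 249 in BxPC-3 PMA against 67.0, 66.6 and 70.5 in BxPC-3 untreated arrays. In AsPC-1 they were 267, 177 and 228 with PMA against 221, 187 and 166 untreated, with overlap. Over all arrays PIM1 was the 1 gene of the 22 whose PMA response passed the test of a difference between the lines, at 1.79 ± 0.31 (limma adjusted p = 0.026, against 0.497% of all genes), and without AsPC-1 PMA replicate 1 there were 3 higher and 4 lower in BxPC-3. Over all genes this difference passed for 80 with all arrays, and for 9 to 724 with 1 array left out. For PMA itself, without AsPC-1 PMA replicate 1, the list had 8 genes higher and 1 lower in BxPC-3. In AsPC-1 it had 7 higher and 2 lower. Over all genes that setting called 927 higher and 1499 lower in BxPC-3, in place of 421 and 547. In AsPC-1 it called 983 and 2184, in place of 195 and 118. With passage as a block the list had 6 higher in BxPC-3, 5 higher in AsPC-1 and 0 lower in either. The block called 683 higher and 998 lower over all genes in BxPC-3, and 442 and 457 in AsPC-1.

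**Figure D4:**
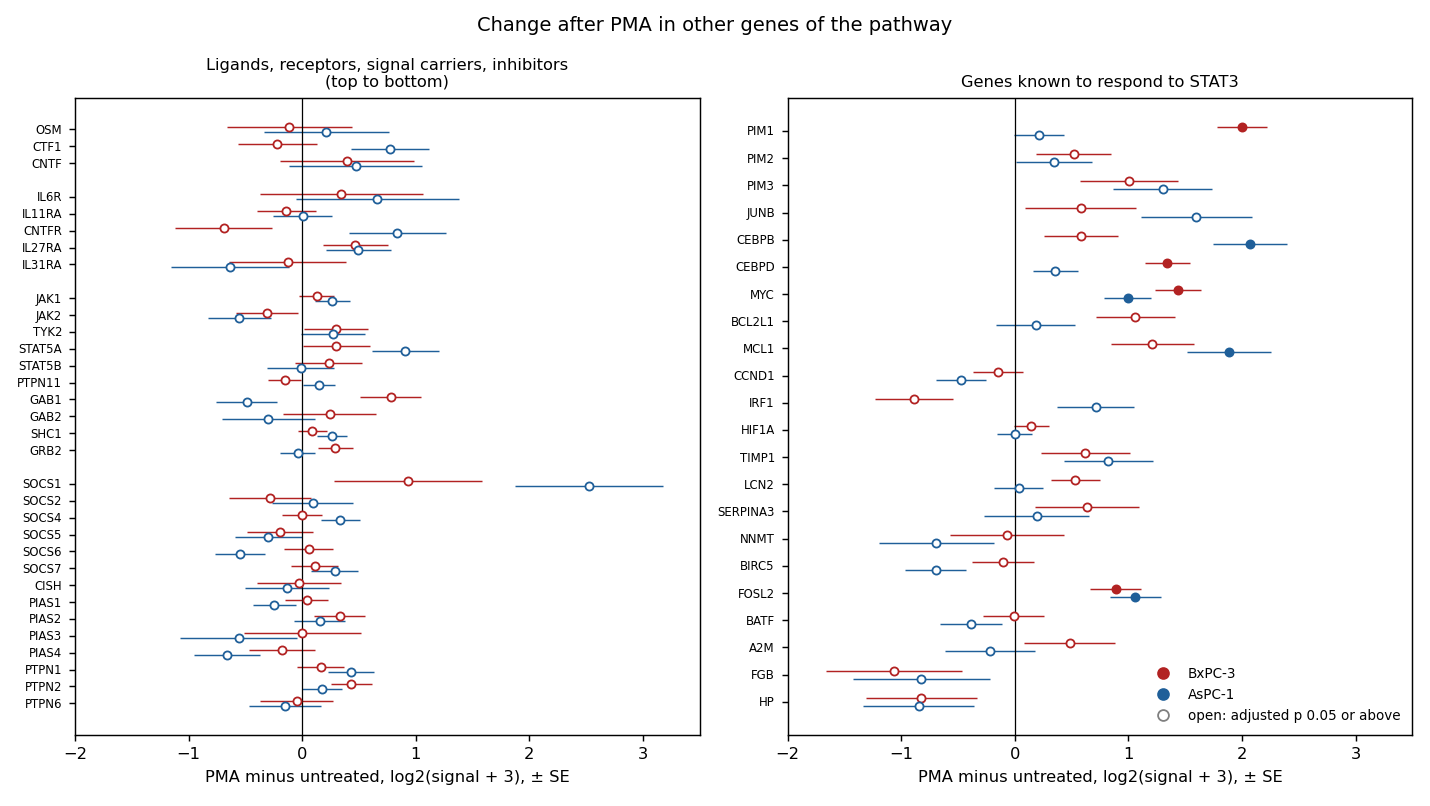
Log2 change after PMA (PMA minus untreated, all 12 arrays, bars are SE) of the other tested genes of the pathway, with filled points for adjusted p below 0.05. On the left, ligands, receptor chains, signal carriers and inhibitors have no filled point, and on the right PIM1 (2.00), MYC, CEBPD and FOSL2 are filled for BxPC-3 and CEBPB (2.07), MCL1, FOSL2 and MYC for AsPC-1.

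Between untreated lines 3 of these 22 genes were higher and 3 lower in BxPC-3, which as 6 of 22 is no larger a share than the 32.7% of all genes. HIF1A (1.38), FOSL2 (0.88) and CEBPD (0.63) were higher, and the acute-phase gene LCN2 (-2.45), SERPINA3 (-1.47) and PIM1 (-1.44) were lower. The counts were 6 and 6 without AsPC-1 PMA replicate 1 in the shared spread. After PMA 4 were higher, CEBPD (1.62), NNMT (1.54), HIF1A (1.52) and FOSL2 (0.71), and 2 lower, LCN2 (-1.95) and IRF1 (-1.01), against 33.7% of all genes called. These counts were 4 higher and 6 lower without AsPC-1 PMA replicate 1. NNMT was dim, at 10.4, 7.61 and 14.9 in BxPC-3 PMA against 0.578, 3.73 and 1.27 in AsPC-1 PMA arrays. SERPINA3 was dim too, at 1.82, 2.05 and 1.26 in BxPC-3 untreated against 11.2, 8.22 and 10.8 in AsPC-1 untreated arrays.

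Among the members, log2 signals of OSMR, IL6ST and SOCS3 ran most closely together over the 12 arrays, at Pearson r of 0.94 for OSMR and SOCS3 and 0.92 for IL6ST with either. These arrays share line, treatment and passage, so the values are a description. The genes outside the family most like LIF were MAFF (0.98), IRAK2 (0.98), PARD6B (0.98), CSRNP2 (0.97) and TNFRSF10D (0.97). Those most like SOCS3 were MARCHF6, MED10, EGR3 and SERTAD1 (0.98 each) and GTF2B (0.97).

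The same measure over 12 arrays gave NRBF2, PNP, TNFAIP3, ETS1 and YRDC (0.98 each) for IL6ST. OSMR was most like SPHK1 (0.98), CDKN1A (0.97), CXCL8 (0.97), STX11 (0.96) and BMP2 (0.96). LIFR had looser neighbours, NFX1 (0.91), TMEM33 (0.91), ZNF101 (0.90), INIP (0.89) and CNDP2 (0.88).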

How the data were processed

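RNA of 12 cultures was hybridised to Affymetrix arrays. The authors deposited 1 table of linear signal intensity for 54675 probe sets, made with MAS5 (no version stated), per the submitters' processing notes. The trimmed mean (2% at each end) was 100.014 to 100.018 on all arrays. Detection calls were not used here, and the number of arrays limits the precision. Values were turned into log2(signal + 3), which understates changes of dim genes. The 62 control probe sets were left out. Of the rest, 41091 had 1 gene symbol, 1801 several and 11721 none. Symbols were checked against a RefSeq gene table by Entrez ID (41037 matched, 0 changed). The brightest probe set stood for each of 19775 genes, and the 16110 above the array's 40th percentile on at least 3 arrays were tested. Some listed genes were not analysed here, and IL27, EBI3, CRP and TWIST1 did not pass the filter.

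The means of 4 groups were fitted in R 4.3.3 by limma 3.58.1 (8 residual degrees of freedom, eBayes moderation with an intensity trend), two-sided, with Benjamini-Hochberg adjustment over all genes tested. All 12 arrays share the spread, so a p-value of one line also holds the spread of the other. With 3 arrays in each group, the smallest p of an exact permutation test is 0.1. Levels were not compared between probe sets. The fit was tested on simulated data. Named are the 8 members, up to 6 genes past the threshold per list and comparison, IL6R, IL11RA, JAK1 and JAK2, and the 5 genes most correlated with each member past the threshold for PMA. Members and lists were chosen with earlier results of these data known.

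Per the labels, PMA and untreated arrays of a line that carry the same number came from the same passage, so they are paired. Deviations of paired arrays from their group means correlated at -0.054, -0.129 and -0.058 in BxPC-3 and 0.416, 0.208 and 0.160 in AsPC-1. Alternatives were pseudocounts of 1 and 16, other filters and scalings, the mean of probe sets, eBayes without trend, the comparison's arrays alone, a passage block, leaving out each array, and, chosen after seeing the data, testing all probe sets with 1 symbol. Figures were drawn with matplotlib 3.10.9.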

Additional observations from a re-analysis of the deposited data

How the results depend on the processing

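For PMA against untreated cells, the members' direction held under all alternatives on the probe set used or the mean of probe sets. Calls near the threshold did not hold. On other single probe sets the direction reversed for LIFR (up to 0.58 in BxPC-3, down to -0.29 in AsPC-1). It also reversed for SOCS3 (down to -0.57 and -0.14). In BxPC-3, 158 of 190 values for single members kept their direction and call, 24 lost and 8 gained the call and 0 reversed; in AsPC-1 these numbers were 166, 19, 5 and 0. In BxPC-3 (4 members called), 2 were called with median centring and 2 with the mean of probe sets. In AsPC-1 (2 called), 1 was called without the filter and 1 with the mean of probe sets, 0 without the trend, 0 with the arrays of the comparison alone and 4 with the replicate block. After PMA (0 called), 1 was called with a pseudocount of 16, 1 with the 60th percentile filter and 1 with the replicate block. Untreated (4 called), 1 was called with median centring, 1 with the mean of probe sets and 2 without the trend. Leaving out 1 array gave 2 to 5 members in BxPC-3, 0 to 5 in AsPC-1, 0 to 1 after PMA, 1 to 5 untreated and 0 to 1 for the difference of responses. The replicate block added the calls of OSMR in BxPC-3, of LIF and IL6ST in AsPC-1 and of SOCS3 after PMA, and changed no other member's call. The cause of these moves was not tested.

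Of the members whose value reversed under a setting, LIF after PMA and SOCS3 untreated passed the threshold under another, and the rest under none. After PMA, median centring gave -0.014 for IL6, -0.015 for IL11 and -0.046 for IL6ST, and the mean of probe sets gave -0.42 for IL6ST. Untreated, IL6 was -0.018 with a pseudocount of 16, and the mean of probe sets gave 0.19 for IL11, -0.35 for IL6ST and -0.070 for SOCS3. For the difference of responses, IL6 was -0.012 with a pseudocount of 1, -0.036 with median centring and -0.10 with quantile normalization, which gave 0.036 for IL6ST. Leaving out 1 array gave, after PMA, -1.33 to 0.12 for LIF, -0.16 to 0.35 for IL6, -0.28 to 0.80 for IL11, -0.029 to 0.31 for OSMR and -0.31 to 0.28 for IL6ST. Untreated, it gave -0.44 to 0.45 for IL6, -0.68 to 0.27 for IL11 and -0.079 to 0.28 for IL6ST. For the difference it gave -0.33 to 0.55 for IL6, -0.15 to 1.13 for IL11, -0.44 to 0.16 for IL6ST and -0.35 to 0.78 for SOCS3.

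Over all genes, 968 were called in BxPC-3 (330 to 2426 without 1 array, 1681 with the replicate block, 3574 with its arrays alone), and 313 in AsPC-1 (60 to 3167 without 1 array, 899 with the block, 151 with the mean of probe sets, 121 without the trend, 0 with its arrays alone). For the difference of responses 80 were called, against 9 to 724 without 1 array, 42 with median centring and 128 with the block. Testing all probe sets, chosen after seeing the data, called 1563 in BxPC-3 and 337 in AsPC-1. Dim signals limit what can be said of IL6 and IL11. They also limit the differences between lines in OSM, CTF1, CNTFR, IL31RA, NNMT and SERPINA3.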
